A study of Mus musculus with 36 samples.

Results

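The 10 genes Afp, H19, Igf2, Gpc3, Dlk1, Cd24a, Sox9, Epcam, Krt19 and Krt7 are used in liver biology as marks of fetal hepatocytes and of bile duct or progenitor cells. They were chosen by name and make up 10 of the 21955 gene symbols counted. Total RNA, depleted of ribosomal RNA, was sequenced from frozen livers of C57BL/6JN mice, an inbred laboratory strain, during regeneration. Young mice aged 4 months were compared with old mice aged 18 months, which the submitters name as the treated group. Both ages were sampled at time points labelled before, 48, 72, 96, 120 and 240, with 3 biological replicates in each of the 12 groups and 36 libraries in all. The labels give no unit for the times, no sex, and no account of how regeneration was started. They name no allele, transgene or drug. Age and time point are the described differences between the groups, beside the ERCC mix of added control RNA, which differed between the ages.

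Alpha-fetoprotein, the product of Afp, is the main serum protein of the fetal liver and is shut down in hepatocytes soon after birth. H19, a long noncoding RNA, and Igf2, a fetal growth factor, are imprinted neighbours that are read from opposite parental chromosomes and are likewise silenced in liver after birth. Gpc3 (a cell-surface heparan sulfate proteoglycan), Dlk1 (a membrane protein related to Notch ligands) and Cd24a (a small glycosylated surface protein) are high in the fetal liver and low in the adult organ, although other adult cell types express some of them. Sox9 (a transcription factor), Epcam (an adhesion protein) and the keratins Krt19 and Krt7 mark bile duct epithelium, and several of these genes are also switched on in ductular reactions and in some injured hepatocytes. In liver injury, renewed expression of such genes is commonly read as a fetal-like or progenitor-like state.

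The sequences shown are those next to the genes with a called difference, as far as a reference entry was given: the 250 bases before the RefSeq start of Afp and of Gpc3 (build GRCm38.p6, strand of the gene). Capitals mark exact matches, on either strand, to TATAAA (the TATA box) or GGGCGG (the core GC box, which reads CCGCCC on the strand shown where the match is on the other strand).
Afp, chr5:90490464-90490713 (+): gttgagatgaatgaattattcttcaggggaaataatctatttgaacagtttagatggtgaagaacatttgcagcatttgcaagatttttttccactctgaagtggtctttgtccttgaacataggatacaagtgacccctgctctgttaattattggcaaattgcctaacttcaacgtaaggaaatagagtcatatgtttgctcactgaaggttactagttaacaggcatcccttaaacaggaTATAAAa
Gpc3, chrX:52613975-52614224 (-): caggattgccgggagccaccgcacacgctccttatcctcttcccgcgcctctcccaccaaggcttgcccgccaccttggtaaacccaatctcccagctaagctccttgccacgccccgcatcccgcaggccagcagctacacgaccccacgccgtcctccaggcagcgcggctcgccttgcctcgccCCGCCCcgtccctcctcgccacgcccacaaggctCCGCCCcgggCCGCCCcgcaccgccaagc
The Afp window held 1 TATAAA and was 36.0% G and C. Among 32851 RefSeq windows of 250 bases, 12.4% held TATAAA. The start of Afp in the GENCODE annotation lies 23 bases beyond the end of this window, with the first base of TATAAA 30 bases before it. The Gpc3 window, at 71.6% G and C, held 3 GGGCGG, a motif found in 32.7% of windows. These matches describe letters and are not evidence of binding. Of the 10 genes, 6 had an entry in the promoter table. No entry was used for H19, Cd24a, Sox9 or Krt19.

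H19 also carries the hairpin of miR-675 inside an exon, so the 2 mature microRNAs are shown with their seed (bases 2 to 8) in capitals. The libraries counted H19 as a gene and did not measure these small RNAs.
mmu-miR-675-5p: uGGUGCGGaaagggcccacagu
mmu-miR-675-3p: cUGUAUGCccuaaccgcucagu

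In GRCm38 coordinates from the GENCODE annotation, Afp lies at chr5:90490737-90508907 on the plus strand, 14134 bases downstream of Alb, which encodes albumin. H19 lies at chr7:142575529-142578143 and Igf2 at chr7:142650766-142666816, both on the minus strand and 72622 bases apart. Gpc3 spans chrX:52272426-52613950 (-), and Krt19 spans chr11:100140810-100148665 (-). Values are counts over whole genes and do not separate exons from introns or isoforms. Whether counting used strand is not given in the sources used here, so reads of overlapping antisense transcripts cannot be told apart from those of the gene.

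Libraries held 2328233 to 6034446 counts (median 4439170). Levels are given as CPM, counts scaled to a common library total after TMM adjustment, and 3 counts, the level taken as the floor of detection, came to 0.490 to 1.29 CPM. A gene was called where the adjusted p of edgeR's quasi-likelihood test, over 13436 tested genes, was under 0.05. Transcripts of 4 Y-linked genes (Kdm5d, Uty, Ddx3y and Eif2s3y) summed to 177 to 321 CPM in 12 libraries, 1 of each group, and to no more than 0.212 CPM in the other 24, and the called differences are also given for libraries without these transcripts. Summed hepatocyte markers (9 of 10 listed were in the tables) were between 25339 and 42730 CPM in every library. In bulk RNA, fewer cells of a type and less RNA per cell cannot be told apart.

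Per kilobase of annotated exon, the mean level over the 36 libraries was highest for H19 (17.6 CPM per kb), followed by Afp (3.68), Cd24a (3.58), Sox9 (2.44) and Krt19 (1.16). Epcam (0.427), Gpc3 (0.420), Igf2 (0.191), Krt7 (0.0664) and Dlk1 (0.0250 CPM per kb) were far lower. The median of H19 was only 3.5 CPM per kb against a highest library of 156.8, so its mean rests on a few libraries. The filter on low counts was passed by 7 of the 10 genes. Dlk1, Epcam and Krt7 failed it and are given below as levels.

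Afp was the one gene of the 10 called for age in the average over the time points, and its mean level was higher in old mice at 6 of 6 time points. Before, the young libraries held 2.91, 6.78 and 10.7 CPM and the old libraries 10.8, 15.0 and 18.5 CPM. At 48 the young libraries held 5.88, 5.91 and 6.99 CPM and the old 6.00, 17.8 and 21.5 CPM. At 72 the young held 4.02, 4.86 and 7.89 CPM and the old 13.8, 17 and 25 CPM. The ages did not overlap before or at 72, and at 48 a single old library lay among the young ones. Here and below, a lack of overlap between 3 and 3 libraries is a description only. The share of all genes without overlap was not counted. At 96 the young libraries held 5.32, 8.88 and 17.4 CPM and the old 8.16, 18.8 and 27.6 CPM. At 120 the young held 7.21, 11.7 and 14.8 CPM and the old 13.3, 14 and 20.9 CPM. At 240 the young held 5.07, 14.1 and 15.0 CPM and the old 9.90, 16.4 and 16.7 CPM. From 96 on, the ages overlapped at each time point. The old mean was 2.17 times the young mean before, 2.41 times it at 48 and 3.33 times it at 72, and the ratio then narrowed to 1.72 at 96, 1.43 at 120 and 1.26 at 240.

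Ordered by mean, the 6 old groups took the top 6 places for Afp, from 18.6 ± 5.79 CPM (SD, n = 3) at 72 down to 14.3 CPM at 240, and the 6 young groups the lower 6, from 11.4 CPM at 240 down to 5.59 ± 2.04 CPM at 72. Each of the 11 neighbouring pairs in this order overlapped in their libraries. Averaged over the time points, Afp stood at 16.2 CPM in old and 8.64 CPM in young mice, a log2 difference of 0.97 ± 0.20 (SE), or 1.96-fold (edgeR, adjusted p 0.00348). This was 1 call among the 7 genes tested, in a comparison that called 5.98% of all genes, and 3.39% as higher. A change of Afp with time was not called: the joint test of all later time points against before gave an adjusted p of 0.332 in young and 0.957 in old mice, and the test of whether the course differed between the ages gave 0.774. At single time points the age difference of Afp reached an adjusted p of 0.665 before, 0.0972 at 48 and 0.411 at 72, so it was not called there. In libraries without Y-linked transcripts it was called at 48 (1.60, adjusted p 0.00982) and at 72 (2.24, adjusted p 0.0143), and at 48 also with a Y-linked term (adjusted p 0.0267) and without old replicate 1 (adjusted p 0.0275). With all libraries, the age comparisons before, at 48 and at 72 called 0.0595%, 11.2% and 0% of genes, with 653 genes and 5 of the 7 members at an unadjusted p under 0.05 at 72. The shares of all genes called in the other fits are not given here, so the Afp calls of those fits have no share beside them.

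**Figure D1:**
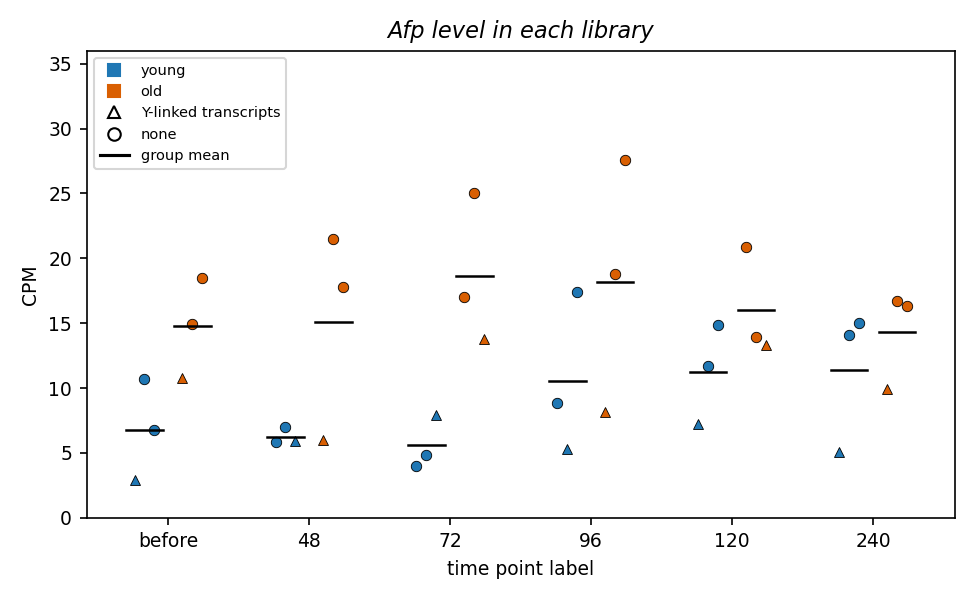
Afp level in each library (CPM, linear axis) against the time point label, with young libraries in blue and old in orange, triangles for libraries with Y-linked transcripts and bars for group means. The old means lie between 14.3 and 18.6 CPM and the young means between 5.59 and 11.4 CPM.

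Afp also followed the Y-linked split. The library with Y-linked transcripts had the lowest Afp of its group in 10 of 12 groups. Among libraries with these transcripts, the median was 5.62 CPM in young (2.91 to 7.89, n = 6) and 10.3 CPM in old mice (6.00 to 13.8, n = 6). Among the others it was 9.79 CPM in young (4.02 to 17.4, n = 12) and 18.1 CPM in old mice (14 to 27.6, n = 12). The age difference therefore pointed the same way in both parts. Fitted in the libraries without Y-linked transcripts alone it was 1.04 (adjusted p 0.000162), and in the 12 with them 0.85 (adjusted p 0.133, not called, with 1 library per group).

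No other gene of the albumin family was called for age. Alb, the upstream neighbour of Afp, stood at 8059 CPM in old and 8935 CPM in young mice (log2 difference -0.16 ± 0.09, adjusted p 0.334). Afm, encoding afamin, differed by -0.11 ± 0.21 (adjusted p 0.834), and Gc, encoding the vitamin D binding protein, by -0.07 ± 0.08 (adjusted p 0.666). These 3 were given after their values were seen. Among the 12 albumin-family genes and known regulators of Afp, all tested, 0 were called for age, where 5.98% of all genes were. Their median log2 difference was -0.07 against 0.0017 over all genes. Zbtb20, a repressor of Afp and among the 2 with the smallest p, differed by -0.24 ± 0.09 (adjusted p 0.0916). At 48, Zbtb20 stood at 131.9 CPM in old and 203.5 CPM in young mice (-0.63 ± 0.21, adjusted p 0.0512). There too 0 of the 12 were called, against 11.2% of all genes. A link between Zbtb20 and the level of Afp was not tested.

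H19 changed the most of the 10 genes during regeneration, in both ages, and its replicates disagreed by a wide margin. Before, the young libraries held 0.208, 3.39 and 3.48 CPM and the old ones 1.60, 2.46 and 3.05 CPM. At 48 the young held 1.97, 2.78 and 8.02 CPM and the old 0.203, 2.45 and 7.16 CPM. H19 was thus low in both ages until 48. At 72 the young libraries held 5.09, 125.7 and 385.6 CPM, while the old held 19.7, 22.7 and 25.9 CPM. At 96 the young held 15.4, 17.1 and 18.9 CPM and the old 5.58, 7.59 and 39.1 CPM. At 120 the young held 27.4, 35.6 and 204.6 CPM and the old 9.21, 52.7 and 380.2 CPM. Every library at 72, 96 and 120 held more H19 than every library before, in both ages, but 4 of these 18 libraries stood above 100 CPM and the rest at or below 52.7 CPM. At 240 the young libraries held 0, 7.23 and 9.78 CPM, where 0 counts allow up to 0.845 CPM, and the old held 5.94, 41.0 and 56.9 CPM. The ages overlapped at 72, 96, 120 and 240, as at the earlier times.

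In young mice H19 rose from 2.36 CPM before to 172 ± 194 CPM at 72 (SD, n = 3), a log2 change of 6.23 ± 1.52 (SE; edgeR, adjusted p 0.00666). It was 1 of 3 calls among the 7 tested genes in a comparison that called 17.4% of all genes, and 9.21% as higher. At 120 in young mice the change was 5.28 ± 1.5 (adjusted p 0.114), not called where 0.581% of genes were. In old mice H19 rose by 5.94 ± 1.51 at 120 (adjusted p 0.0267), the 1 call among 7 where 3.87% of genes were called (1.85% as higher), and stood 3.25 ± 1.49 above before at 72 (adjusted p 0.157, where 12.4% were called). The joint test over all later times gave an adjusted p of 0.00195 in young and 0.0105 in old mice, against 21.4% and 20.5% of genes called.

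The largest H19 mean therefore came at 72 in young and at 120 in old mice, but this difference in course was not called (interaction, adjusted p 0.497; 2.76% of genes called, 0 of 7 members). At 72 the old minus young difference was -2.92 ± 1.19 (adjusted p 0.901), and averaged over time it was 0.03 ± 0.57 (adjusted p 0.990). The old call at 120 was lost without old replicate 2, which lowered the change to 3.68 (adjusted p 0.177), without any one of the 3 old libraries before (adjusted p 0.0530 to 0.148), and when only the groups compared were fitted (adjusted p 0.230). That last fit also lost the young call at 72 (6.26, adjusted p 0.115). In libraries without Y-linked transcripts the change was 6.22 in young mice at 72 (adjusted p 0.00370) and 6.73 in old mice at 120 (adjusted p 0.00512). The library with Y-linked transcripts was lowest for H19 in 9 of 12 groups and highest in 2, with a median of 5.34 CPM in these libraries and 18.0 CPM in the others. Of the 11 neighbours in the order of group means, 10 overlapped. The exception was young mice at 96 (17.2 ± 1.76 CPM) against the next lower group, young mice at 240 (5.67 ± 5.07 CPM).

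**Figure D2:**
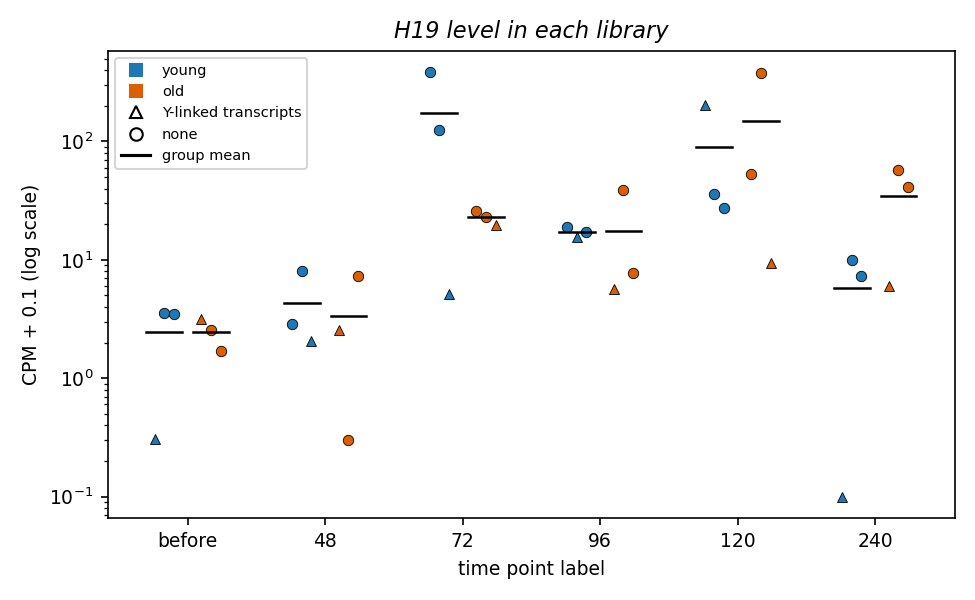
H19 level in each library on a log axis of CPM with a small offset, against the time point label, with young in blue, old in orange, triangles for libraries with Y-linked transcripts and bars for group means. Libraries before and at 48 lie at or under 8.02 CPM, and the 4 libraries above 100 CPM are young at 72 and 120 and old at 120.

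Igf2, whose product signals through Igf1r and Insr, did not follow its neighbour H19. It had 0 to 19 counts per library (median 3), 16 of 36 libraries above the floor, and 165 counts in all. The median was 0.567 CPM in young (0 to 1.95) and 1.17 CPM in old libraries (0.205 to 5.77). The library with the most Igf2, old replicate 2 at 120 with 5.77 CPM, was also the old library with the most H19, but the 2 young libraries with the most H19 at 72 held 0.574 and 0 CPM of Igf2. Over the 36 libraries, r between log2(CPM + 1) of H19 and Igf2 was 0.22, a description of libraries that share groups and depth. The averaged age difference of Igf2 was 0.96 ± 0.37 with an adjusted p of 0.130, so it was not called. Leaving out young replicate 1 at 120 brought it to 1.26 (adjusted p 0.0469). The highest Igf2 libraries were all old, at 120 (2.32 and 5.77 CPM) and 240 (2.76 CPM). Igf2 passed the filter on low counts through these, so its age difference is not independent of the filter.

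Gpc3 was called higher in young mice at 72. It had 0, 3 and 3 counts before (0, 0.624 and 0.726 CPM) and 9, 9 and 16 counts at 72 (1.72, 2.29 and 3.89 CPM), so the groups did not overlap. Since each library before was at or under the floor of 3 counts, the mean at 72 is given as at least 3.77-fold higher than the mean floor of those libraries, 0.699 CPM. The fitted change was 2.43 ± 0.82 (edgeR, adjusted p 0.0386). At 96 and 120 the young libraries held 0.276 to 3.19 and 1.11 to 2.34 CPM (fitted changes 1.93 and 1.90, adjusted p 0.255 and 0.366), and at 240 they were back at 0.455 to 0.845 CPM. In old mice Gpc3 at 72 was 0, 0.957 and 1.40 CPM, below each young library, and its change from before was 0.51 ± 0.92 (adjusted p 0.763). The old minus young difference at 72 was -1.72 ± 0.74 with an adjusted p of 0.928, and the interaction gave 0.789, so a difference between the ages in this rise was not called. The call is thin: it was lost when counts were fitted without a filter, when only libraries without Y-linked transcripts were used (2.82, adjusted p 0.120), and on leaving out each of 5 single libraries (adjusted p up to 0.157). The highest Gpc3 libraries were all young, at 72, 96 and 120 (3.89, 3.19 and 2.34 CPM). Gpc3 passed the filter on low counts through these, so its rise is not independent of the filter. For this change it was tested in 44 alternatives, against 45 for H19 and Krt19.

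Dlk1 was at 0 counts in 27 of 36 libraries and reached 22 counts in all. Its highest value, 1.64 CPM, came from 7 counts in the old library with Y-linked transcripts before, and the remaining libraries stood at or under 3 counts. No fold is given for Dlk1.

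Cd24a was present in every library at 14 to 102 counts. Its averaged age difference was 0.10 ± 0.17 (adjusted p 0.813). In old mice it went from 10.5, 10.8 and 15.0 CPM before to 4.50, 13.8 and 20.7 CPM at 48 and 2.68, 4.68 and 8.21 CPM at 72. The old libraries at 72 lay below each old library before, a change of -1.22 ± 0.42 that narrowly missed the call (adjusted p 0.0520). Young Cd24a went from 6.47, 8.53 and 9.69 CPM before to 5.60, 8.99 and 18.5 CPM at 72 (0.42 ± 0.41, adjusted p 0.519), with overlapping values. Of the 7 genes it had the smallest interaction p, 0.0432 before and 0.333 after adjustment.

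Among the biliary genes, Krt19 was the one called for a change with time in the main fit, where Epcam and Krt7 were not tested. In young mice it went from 0.969, 1.24 and 1.25 CPM before to 3.56, 5.35 and 9.24 CPM at 72, without overlap. The mean rose from 1.15 to 6.05 CPM, a log2 change of 2.36 ± 0.71 (edgeR, adjusted p 0.0205), and the joint test over the young course gave an adjusted p of 0.0124. At 96 the young libraries held 2.21, 2.47 and 8.21 CPM, a change of 1.91 ± 0.71 (adjusted p 0.182), and at 120 they held 0.195, 1.48 and 2.28 CPM. In old mice Krt19 stood at 0.704, 0.913 and 1.56 CPM before and 0.821, 1.40 and 2.68 CPM at 72 (0.62 ± 0.79, adjusted p 0.657). Each old library at 72 was below each young one, but the age difference, -1.85 ± 0.66, had an adjusted p of 0.709, and the interaction gave 0.476. In libraries without Y-linked transcripts the young change was 2.69 (adjusted p 0.0465). The young call was lost without any one of the 3 libraries before or without young replicate 2 at 72 (adjusted p up to 0.11).

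Sox9 was the most abundant biliary gene, with 8 to 107 counts. Young libraries held 3.12, 5.72 and 7.26 CPM before, 8.66, 9.83 and 10.3 CPM at 48 and 11.7, 12.2 and 15.5 CPM at 72. Each young library at 48 and at 72 was above each one before, yet the change at 72, 1.30 ± 0.62, had an adjusted p of 0.149. It was called when only the groups compared were fitted (1.33, adjusted p 0.0176). Old libraries before ran from 1.83 to 25.1 CPM, and the old change at 72 was 0.03 ± 0.58 (adjusted p 0.983). The averaged age difference was 0.57 ± 0.25 (11.9 CPM in old, 8.32 CPM in young; adjusted p 0.182). Sox9 went with the Y-linked split in the opposite direction to Afp: the library with these transcripts was highest in 9 of 12 groups, with a median of 14.4 CPM against 6.94 CPM. The 6 old libraries with Y-linked transcripts held 14 to 25.1 CPM and the 6 young ones 3.12 to 15.8 CPM. Without these libraries the age difference was 0.18 (adjusted p 0.647).

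Epcam and Krt7 stayed near the floor. Epcam had 0 to 12 counts per library (151 in all), a median of 0.990 CPM in young and 0.642 CPM in old libraries, and its highest value, 2.92 CPM, in young replicate 2 at 72, which also had the highest Krt19 and Gpc3. Krt7 had 0 to 8 counts (75 in all) and a highest group mean of 1.03 CPM in young mice at 72, where its libraries held 0.729, 1.02 and 1.34 CPM against 0, 0.726 and 0.746 CPM before. In the fit without a filter, 60 tests of Dlk1, Epcam and Krt7 gave 0 calls in edgeR, 2 unadjusted p-values under 0.05 and a lowest adjusted p of 0.249.

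**Figure D3:**
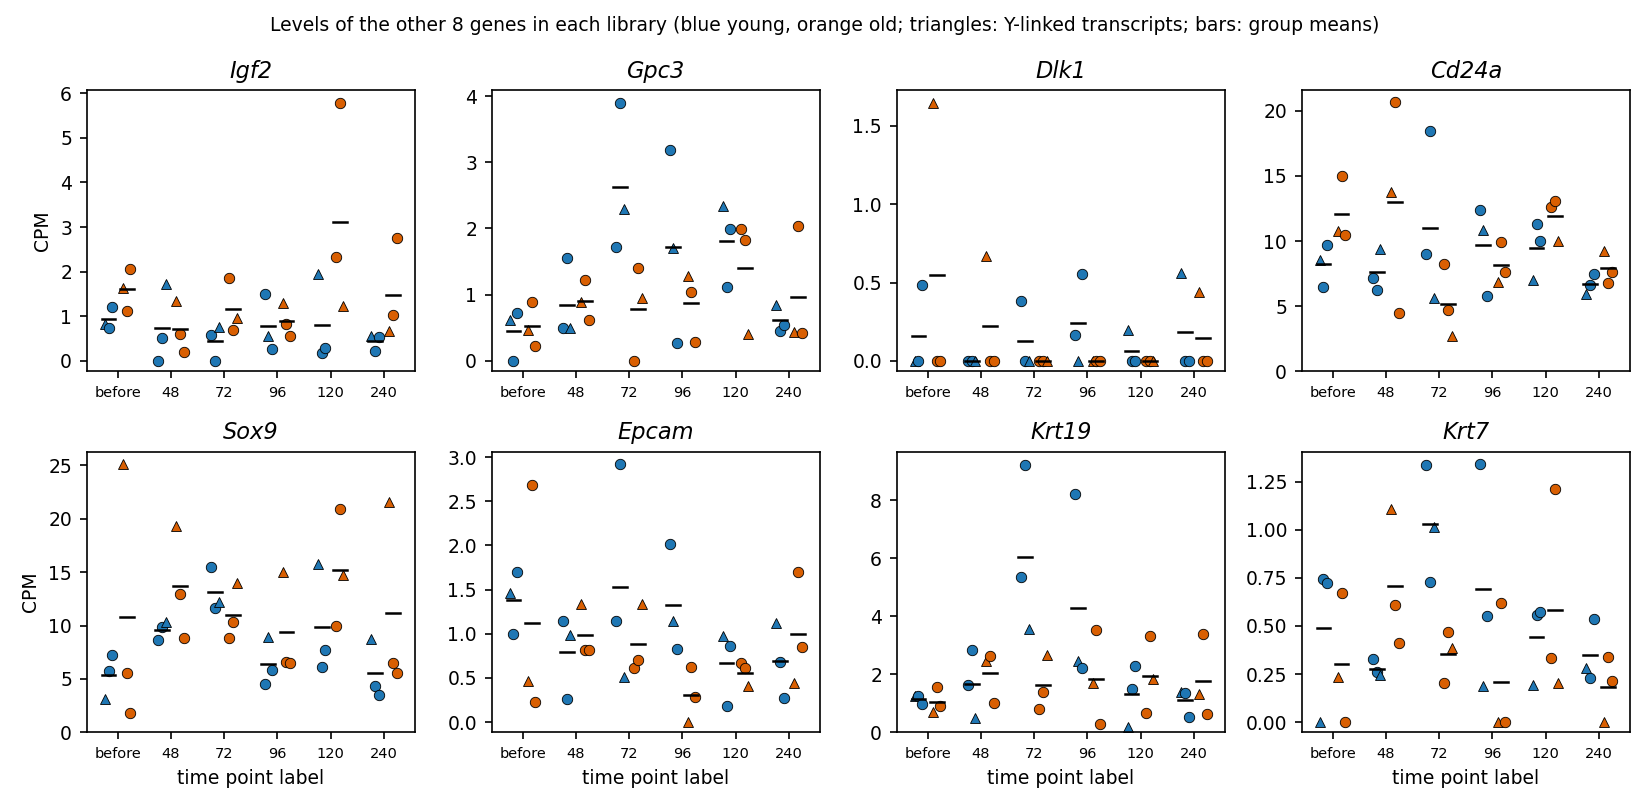
Levels of Igf2, Gpc3, Dlk1, Cd24a, Sox9, Epcam, Krt19 and Krt7 in each library (CPM, linear axes that differ between panels) against the time point label, with young in blue, old in orange, triangles for Y-linked transcripts and bars for group means. Gpc3, Krt19 and Krt7 have their highest group mean in young mice at 72, at 2.63, 6.05 and 1.03 CPM.

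Across the 7 tested genes, young mice at 72 had 5 positive and 2 negative changes (Afp and Igf2 negative), with a median of 1.30 against 0.01 over all genes. Old mice at 72 also had 5 and 2, but there Igf2 and Cd24a were negative, with a median of 0.33 against -0.0061. The 3 genes that failed the filter are not in these medians. Beside the cases given above, the ages did not overlap for Igf2 at 240, Cd24a before and Krt7 at 48, with old higher. Nor did they for Epcam at 96 and Krt7 at 72, with old lower. H19, Gpc3 and Krt19 were called higher in young mice at 72 and 0 of 7 at 48, when 21.9% of genes were called. The young comparisons with before share their 3 control libraries, so their values are not independent of each other. The later young comparisons called 0 of 7 members, against 1.4% of genes at 96, 0.581% at 120 and 0.246% at 240. In old mice 0 of 7 were called at 48, 72, 96 and 240, where 24.1%, 12.4%, 6.82% and 0.156% of genes were. Old against young at 96, 120 and 240 called 0 of 7 members, and 0.171%, 0% and 0.0149% of genes. At 120 those 0 calls in edgeR went with 1321 genes, 1 of them a member, at an unadjusted p under 0.05.

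**Figure D4:**
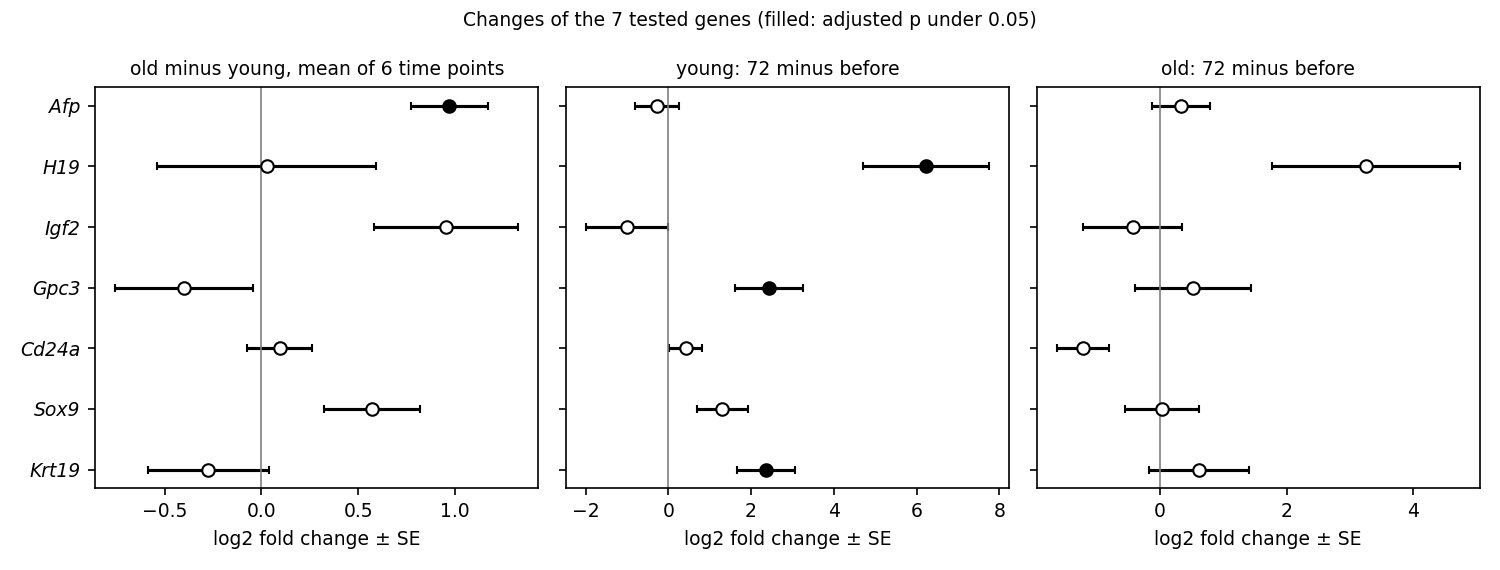
Log2 fold change with its SE for the 7 tested genes in old minus young averaged over the time points, young 72 minus before and old 72 minus before, where filled points have an adjusted p under 0.05. Afp is filled in the first panel (0.97), H19 (6.23), Gpc3 (2.43) and Krt19 (2.36) in the second, and no gene in the third.

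Gene lists around the 10 genes were counted in the same fit. Of 17 further fetal hepatocyte and oncofetal genes, 6 were tested and 2 rose in young mice at 72, against 17.4% of all genes called in either direction: Scd2, a fatty acid desaturase, from 14.6 to 48.7 CPM (1.74 ± 0.39, adjusted p 0.00294), and Igdcc4, a surface protein of the immunoglobulin superfamily, from 0.455 to 23.8 CPM (5.59 ± 1.15, adjusted p 0.00186). Igdcc4 was already higher at 48, when H19 was not called, with 4.74, 15.8 and 17.6 CPM in young libraries (4.67 ± 1.19, adjusted p 0.00567) and 33.3, 35.9 and 38.5 CPM in old ones (5.81 ± 1.09, adjusted p 0.000513). In old mice it was also called at 96 (4.07 ± 1.17, adjusted p 0.0348) and 120 (5.32 ± 1.11, adjusted p 0.00714). Igdcc4 was the 1 call among the 6 in young mice at 48 and in old mice at 96, where 21.9% and 6.82% of all genes were called. In old mice at 48 and at 120, 2 of the 6 were called, 1 higher and 1 lower each time, where 24.1% and 3.87% of all genes were. Young libraries at 72 held 7.53, 7.84 and 56 CPM of Igdcc4, and old libraries at 120 held 2.46, 37.5 and 38.3 CPM. In old mice at 120 Igf2bp2, an RNA-binding protein of Igf2 messages, fell from 3.75 to 1.28 CPM (-1.55 ± 0.45, adjusted p 0.0455). Averaged over time, 0 of the 6 were called for age, where 5.98% of all genes were.

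Of 18 imprinted genes, 15 were tested. In young mice at 72, where 17.4% of all genes were called, 3 rose, namely the noncoding RNA Kcnq1ot1 (1.08 ± 0.27), the Igf2 clearance receptor Igf2r (0.51 ± 0.14) and the adaptor Grb10 (0.80 ± 0.28), and the amino acid transporter Slc38a4 fell (-0.85 ± 0.29; adjusted p 0.00626, 0.0147, 0.0485 and 0.0389). With age 4 of 15 were lower in old mice and 0 higher, against 5.98% of all genes called. The noncoding RNAs Rian and Meg3, which are read from the same imprinted domain as Dlk1, stood at 1.17 and 2.40 CPM in old and 5.03 and 9.83 CPM in young mice (-2.22 ± 0.39 and -2.18 ± 0.40, adjusted p 0.000688 and 0.00117). Grb10 differed by -0.62 ± 0.12 and Slc38a4 by -0.42 ± 0.12 (adjusted p 0.00170 and 0.0269). The list's median age difference was -0.04 against 0.0017 over all genes.

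Of 13 genes of IGF signalling, all tested, 5 fell and 0 rose in young mice at 72, where 17.4% of all genes were called in either direction. The 4 with the smallest p were the insulin receptor substrate Irs2 (242 to 53.0 CPM, -2.19 ± 0.51), the growth factor Igf1 (1917 to 919 CPM, -1.06 ± 0.27), the insulin receptor Insr (-0.59 ± 0.16) and the binding protein Igfbp1 (-2.66 ± 0.76), with adjusted p from 0.00437 to 0.0167. The list's median change was -0.23 against 0.01. With age, 0 of 13 were called, where 5.98% of all genes were.

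Of 23 further cholangiocyte genes, 17 were tested. In young mice at 72, where 9.21% of all genes were called higher, 4 rose and 0 fell, beside Krt19: the epithelial transcription factor Elf3 (0.327 to 3.31 CPM, 3.30 ± 0.86), the RNA-binding protein Bicc1 (1.86 to 8.11 CPM, 2.11 ± 0.57), the secreted phosphoprotein Spp1 (35.4 to 128.5 CPM, 1.86 ± 0.62) and the membrane protein Prom1 (1.76 to 35.0 CPM, 4.33 ± 1.48), with adjusted p from 0.00865 to 0.0443. The median change of the 17 was 0.54 against 0.01. In old mice at 72, where 12.4% of all genes were called, 1 of 17 was called, Dcdc2a, which fell (-1.24 ± 0.41, adjusted p 0.0425). With age, Cdh1, which encodes E-cadherin and is also expressed by hepatocytes, was lower in old mice (38.1 against 110.8 CPM, -1.66 ± 0.26, adjusted p 0.000264). It was the 1 call among 17, near the share of 5.98% of all genes called. The median age difference of the 17 was -0.01 against 0.0017 over all genes. Of 15 Notch pathway genes, 14 were tested. Notch1 rose in young mice at 72 (0.56 ± 0.17, adjusted p 0.0270), the 1 call among 14 where 17.4% of all genes were called. In old mice at 72, 2 of 14 were called, where 12.4% of all genes were. Notch1 rose there (0.57 ± 0.17, adjusted p 0.0297) and the ligand Dll4 fell (-1.18 ± 0.29, adjusted p 0.00680). With age, 0 of 14 were called, where 5.98% of all genes were.

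Markers of some other cell types and of cell division also rose in young mice at 72, where 17.4% of all genes were called and 9.21% were higher. Mesothelium, the surface lining of the liver, expresses Krt19, and 4 of its 5 tested markers rose in young mice at 72: Lrrn4, Msln, Wt1 and Upk3b (log2 changes 2.65 to 4.31). Their list (7 of 8 in the tables) summed to 3.54 to 5.97 CPM in young libraries before, 24.1 to 30.0 CPM at 72, and 9.65 to 14.7 CPM in old libraries at 72. Stellate and mesenchymal markers summed to 394 to 546 CPM in young libraries before and 416 to 928 CPM at 72, and 3 of 11 rose: Col1a1, Col3a1 and Pdgfrb. In old libraries at 72 they summed to 330 to 443 CPM. No marker of either list was at 0 counts in all libraries. Of 3 tested neutrophil markers 1 rose, S100a9, and the list summed to 1.66 to 3.15 CPM in young libraries before and 5.85 to 8.41 CPM at 72. B cell markers summed to 10.9 to 16.9 CPM in young libraries before and 6.36 to 9.97 CPM at 72, with 0 of 5 tested called. Erythroid markers summed to 14.3 to 22.3 CPM before and 16.5 to 26.5 CPM at 72, with 0 of 4 called. Pancreatic acinar markers summed to 5.57 to 6.45 CPM in young libraries before and 0.972 to 1.72 CPM at 72. All 8 proliferation markers rose, with sums of 47.2 to 72.6 CPM before and 551 to 2165 CPM at 72. They rose in old mice at 72 too, 8 of 8, to sums of 814 to 1845 CPM, where Krt19 and Gpc3 were not called. Hepatocyte markers fell in 2 of 9 cases in young mice at 72 (Apoa2 and Cyp2e1). In old mice at 48, where 0 of the 7 genes were called and 24.1% of all genes were, 5 of the 9 fell and 1 rose. In the library with the highest Krt19 at 96, young replicate 1 with 8.21 CPM, mesothelium markers summed to 36.9 CPM and pancreatic acinar markers to 130.6 CPM, against at most 8.45 CPM of the latter in the libraries other than it and old replicate 3 at 120 (258.7 CPM). Old replicate 3 at 120 was the lowest of its group for H19. Averaged over time, the mesothelium marker Lrrn4 (0.71 ± 0.22, adjusted p 0.0487) and the neutrophil marker S100a9 (1.70 ± 0.35, adjusted p 0.00374) were higher in old mice, like Afp, and Col3a1 (-0.90 ± 0.21), Col1a1 (-0.93 ± 0.27) and the hepatocyte gene Cyp2e1 (-0.63 ± 0.14) were lower (adjusted p 0.0103, 0.0416 and 0.00590). In that comparison, which called 5.98% of all genes, Lrrn4 was 1 of 5 tested mesothelium markers called. S100a9 was 1 of 3 tested neutrophil markers called, and Cyp2e1 1 of 9 tested hepatocyte markers. The median age difference of the mesothelium markers was 0.18 against 0.0017 over all genes. The part of these cell types and of cell division in the results was not tested.

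**Figure D5:**
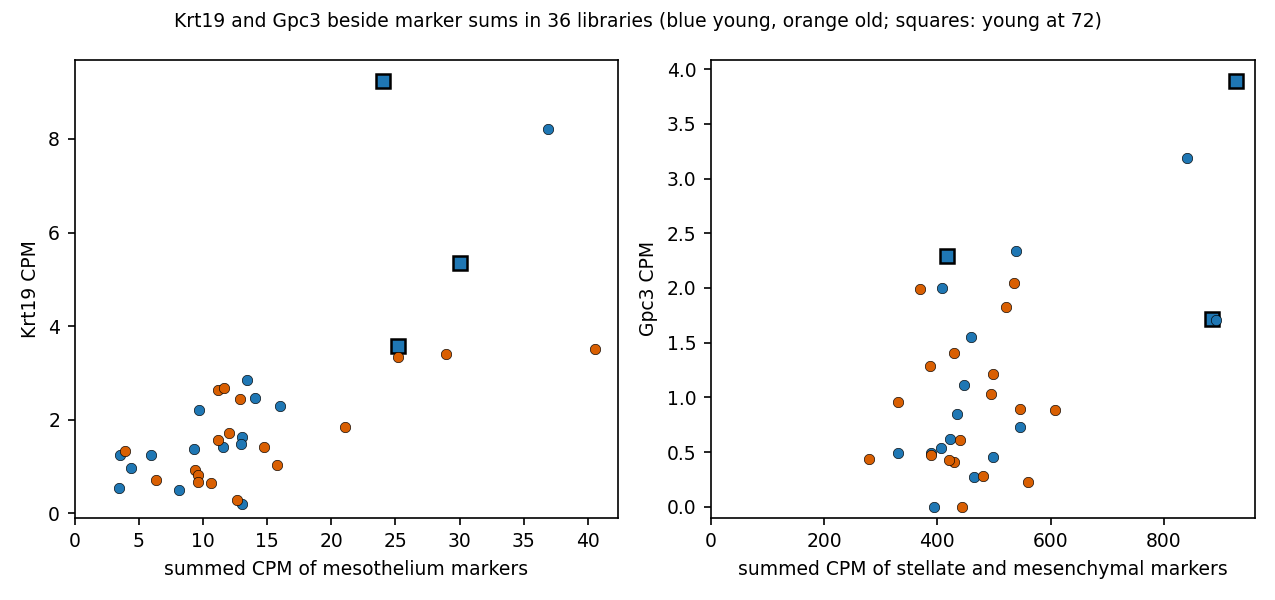
Krt19 against the summed mesothelium markers, and Gpc3 against the summed stellate and mesenchymal markers, in the 36 libraries (CPM, linear axes; blue young, orange old, squares young at 72). The young libraries at 72 hold 24.1 to 30.0 CPM of the mesothelium markers with 3.56 to 9.24 CPM of Krt19. Outside that group, old replicate 2 at 96 holds 40.5 CPM of them with 3.52 CPM of Krt19. Young replicate 1 at 96 holds 36.9 CPM of them with 8.21 CPM of Krt19.

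As a description of likeness, each tested gene was correlated with 12617 other genes over the 36 libraries (Pearson's r of log2(CPM + 1), libraries sharing groups and depth). The 3 nearest to Afp were St3gal6 (0.77), Msantd1 (0.76) and Cyp3a16 (0.75), to H19 Zfp950 (0.72), Oxct1 (0.71) and Mical1 (0.71), and to Igf2 Vwf (0.60), Ric3 (0.59) and Cdh19 (0.54). Gpc3 was nearest to Sulf1 (0.71), Loxl1 (0.71) and Acta2 (0.70), which are expressed by mesenchymal cells, and Krt19 to Matn2 (0.78), Plod2 (0.73) and Ahnak (0.73). Cd24a was nearest to Lyve1 (0.67), Rab31 (0.64) and Pde4d (0.62), and Sox9 to Galns (0.74), Chrm3 (0.74) and BC048546 (0.73). Of the 21 pairs among the 7 genes, 2 had r above 0.5, Gpc3 with Krt19 (0.64) and H19 with Gpc3 (0.50). Afp with Krt19 was the lowest, at -0.27, and the median was 0.15.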

How the data were processed

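Deposited whole-number counts per gene symbol were used, 1 table per library, not normalized. Per the submitters' processing notes, the authors used bcl2fastq 2.20.0, Trimmomatic 0.39, STAR 2.7.5b, SAMtools 1.10, Picard 2.20.8 and featureCounts with builds GRCm38 and mm10. The role of each tool, the annotation and the strand setting are not given in the sources used here. Per the labels' protocols, ERCC mixes differed between the ages, and 0 ERCC rows were in the tables, so scaling was by TMM. Of the symbols, 27 read as dates.

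Counts were tested in edgeR 4.0.16 (R 4.3.3): filterByExpr on the 12 groups, 1 robust quasi-likelihood fit of all 36 libraries, 1 mean per group, and Benjamini-Hochberg adjustment within each comparison. TMM factors were 0.930 to 1.13. SE is the log2 change divided by the root of F. The procedure was tested on simulated data. Samples were grouped by the labelled age and time point.

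The 10 genes and the lists were chosen with earlier results of these data known. The 10 were reported whatever their result. Of each list, up to 4 called genes with the smallest p were named, or up to 2 where none was called (1 of these is not reported here), and 3 genes of mean CPM at least 1 nearest to each tested gene. Alternatives were other scalings and filters, DESeq2 1.42.0, only the groups compared, terms or subsets by Y-linked transcripts, a replicate block and leaving out each library. A fit without time point 48 was chosen after seeing the data. Libraries of a group differed beyond counting noise (chi-square per degree of freedom 4.75 to 65.2), so none was counted as a repeat.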

Additional observations from a re-analysis of the deposited data

How the results depend on the processing

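Directions were compared only where a tested gene had an unadjusted p under 0.05 in the main fit. No log2 change among these was reversed in the other fits. For the remaining changes of the 7 tested genes, many of them near 0, direction was not compared. Genes of the other lists were not recomputed. Counts of called genes among the 7 changed as follows. In the averaged age comparison, the fit of libraries with Y-linked transcripts called 0 in place of 1. With a Y-linked term, 1 gene was called in place of 0 for age at 48, for young mice at 120 and for old mice at 72. In libraries without Y-linked transcripts, 1 was called in place of 0 for age at 48 and 72 and for old mice at 48 and 72, 2 in place of 1 for old mice at 120 and over the old course, 2 in place of 3 for young mice at 72 and 3 in place of 2 over the young course. Fitting only the groups compared called 1 in place of 0 in young mice at 96 and old mice at 72, 0 in place of 1 in old mice at 120, 2 in place of 3 in young mice at 72 (Krt19 and Sox9) and 3 in place of 2 over the young course. Without a filter, 2 were called in place of 3 in young mice at 72. DESeq2 called 1 in place of 0 in young mice at 120 and old mice at 72.

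Leaving out each library in turn gave 1 to 2 calls for the averaged age difference, 0 to 1 for age at 48, 1 to 3 in young mice at 72, 1 to 2 over the young course, 0 to 1 in old mice at 48, 72 and 120, and 0 to 2 over the old course. The other comparisons stayed at 0. The averaged Afp difference stayed called in all 36 such fits (0.90 to 1.06) and without time point 48 (0.91, adjusted p 0.0131). H19 in young mice at 72 was lost in 1 of 45 alternatives, the fit of only the groups compared (adjusted p 0.115), H19 in old mice at 120 in 5, Krt19 in young mice at 72 in 4 and Gpc3 in 7 of 44. H19 over the old course was lost without old replicate 2 at 120 (adjusted p 0.124), and Krt19 over the young course in libraries without Y-linked transcripts (0.0735) and without young replicate 2 at 72 (0.0641). The cause of these changes was not tested.

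Samples were not treated as paired, since not every pair of libraries with the same replicate number deviated together: r was above 0.1 in 7 of 18 pairs of old with young (mean 0.0623) and in 16 of 30 pairs of before with later (mean 0.102, against -0.0447 for other numbers). With the replicate block, 1 gene was called in place of 0 in old mice at 72 (Cd24a, -1.25, adjusted p 0.0355), and the averaged Afp difference was 0.97 (adjusted p 0.000520). The block changed no other count. Igf2, Gpc3, Dlk1, Epcam and Krt7 had medians of 0 to 3.5 counts per library, and the smallest change detectable at these counts was not tested.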

Other observations

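Around the 10 genes, the age comparison at 48 held further differences while 0 of the 7 tested were called. Igfbp1, an IGF binding protein made by hepatocytes, stood at 1228 CPM in old and 219 CPM in young mice (2.49 ± 0.75, edgeR, adjusted p 0.0303), and the insulin receptor Insr at 425 and 303 CPM (0.49 ± 0.16, adjusted p 0.0474), the 2 calls among 13 genes of IGF signalling. Among 17 cholangiocyte genes, Spp1 was higher (95.6 against 23.3 CPM, 2.03 ± 0.63, adjusted p 0.0366) and Cdh1 lower (29.5 against 113.9 CPM, -1.95 ± 0.63, adjusted p 0.0447) in old mice. Among 14 Notch pathway genes, the ligand Dll1 was lower in old mice (13 against 36.5 CPM, -1.50 ± 0.31, adjusted p 0.00189). At this time point 11.2% of all genes were called, and the counts of these lists lie near that share. In the other lists, 0 of 6 fetal hepatocyte and oncofetal genes, 0 of 12 albumin-family genes and Afp regulators and 0 of 15 imprinted genes were called.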
